A study of Arabidopsis thaliana with 12 samples.

Results

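SPL3 (AT2G33810), SPL4 (AT1G53160) and SPL5 (AT3G15270) are the small members of the SQUAMOSA PROMOTER BINDING PROTEIN-LIKE family of Arabidopsis thaliana. They were taken by gene identifier and are 3 of the 24730 genes in the expression table. All 3 passed the minimum of a mean of at least 1 FPKM (fragments scaled to gene length and library size) and so were among the 17925 genes tested. The study set dcl1 mutant plants against Col-0 wild type, and the mutant carries the same Col-0 label. All plants were untreated, grown in long days and 20 days old. The labels give leaf as the tissue, whereas the protocol speaks of seedlings, and the dcl1 allele is not named. Each genotype had 3 input libraries (RNA-seq of fragmented poly(A) RNA) and 3 libraries of fragments bound by an m6A antibody, 12 libraries in all, described in the series design as biological replicates.

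SPL proteins share the SBP box, a zinc-binding domain that contacts DNA. The microRNA miR156 and the closely related miR157, both cut from their primary transcripts by DCL1, pair with the transcripts of most SPL genes and repress them by cleavage and by blocking translation. In young shoots miR156 is abundant, and its decline with age lets SPL levels rise during vegetative phase change and the approach to flowering. In SPL3, SPL4 and SPL5 the miR156 site lies in the 3′ UTR, whereas in the larger targets it lies in the coding sequence. The small proteins consist of little more than the SBP box, act with the FT and FD proteins at the shoot apex, and activate the floral genes LFY, FUL and AP1.

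The genes lie on different chromosomes of the TAIR10 build. SPL3 is on chromosome 2 from 14305001 to 14306072 on the plus strand and spans 1072 bases. SPL4 is on chromosome 1 from 19806419 to 19807608 on the plus strand and spans 1190 bases, with 2 transcripts listed. SPL5 is on chromosome 3 from 5140365 to 5141348 on the minus strand and spans 984 bases. Besides transcription factor activity and location in the nucleus, the authors' annotation gives all 3 the term for regulation of vegetative phase change, which 6 genes of the table carry.

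DCL1 itself was low in the mutant. Its level was 0.604, 0.406 and 0.632 FPKM in dcl1 replicates 1, 2 and 3, against 5.08, 4.53 and 5.996 FPKM in wild-type replicates 1, 2 and 3. Over the tested genes, Pearson's r was 0.985 to 0.993 within genotypes and 0.925 to 0.959 between a dcl1 and a wild-type library. Limma called 17.8% of the tested genes higher in dcl1 and 12.8% lower, the shares beside which the marker counts below stand. Leaf markers were abundant in both genotypes, with a summed level of 41520 to 43900 FPKM in dcl1 libraries and 41060 to 47380 FPKM in wild-type libraries, and of the 6 tested 2 rose and 3 fell (0 to 2 and 2 to 4 without 1 library, with 0 higher without wild-type replicate 1). Of 7 shoot meristem markers, 5 were tested, 2 rose and 0 fell in dcl1, and their summed level was 59.8 to 62.2 FPKM in dcl1 libraries and 46.7 to 55.5 FPKM in wild-type libraries. Among them STM, a meristem maintenance gene, was 21.3, 22.7 and 22.4 FPKM in dcl1 and 18.9, 14.5 and 18.8 FPKM in wild type (log2 0.34, limma adjusted p = 0.049), a call that held when wild-type replicate 3 was left out and was lost in each of the other leave-one-out fits (limma adjusted p up to 0.12). KNAT6, the other gene called (log2 0.38, limma adjusted p = 0.020), lost its call without dcl1 replicate 2 or 3 or wild-type replicate 1 or 2 (0.062 to 0.07). In those 4 fits 0 meristem markers were called higher. WUS and CLV3, which define the stem cell niche, stayed at or under 0.252 FPKM and 0.296 FPKM in every library. The summed level of 6 flower organ markers was 13.8 to 18.3 FPKM in dcl1 and 13.0 to 13.9 FPKM in wild type, with 4 tested, 2 higher (1 without wild-type replicate 2) and 1 lower. Of 7 root markers, 0 passed in limma, 2 had a mean of at least 1 FPKM, PLT1 was not analysed here, and PLT2 was listed at 0 in 5 of the 6 libraries. The summed level of the root markers other than PLT1 was 17.2 to 19.3 FPKM in dcl1 and 20.8 to 23.5 FPKM in wild type.

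The transcripts of all 3 small SPL genes were higher in dcl1 than in wild type, and in none of them did the libraries of the genotypes overlap. SPL4 changed most, to 3.13 times its wild-type mean, followed by SPL5 at 2.92 times and SPL3 at 2.08 times. Of all genes tested, limma called 17.8% higher in dcl1, and in 26.6% every dcl1 library lay above every wild-type library. In bulk samples such as these, more cells expressing a gene and more RNA per cell cannot be told apart. The summed level of the shoot meristem markers was also higher in dcl1, and that of the root markers was lower. Not all meristem markers shared the rise, with KNAT1 at a log2 difference of 0.002 and CLV1 at 0.021. The part of these shifts in the SPL levels was not tested.

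SPL3, the most abundant of the 3, promotes flowering and the adult leaf form when released from miR156. Its level was 24.1, 26.7 and 31.4 FPKM in dcl1 replicates 1, 2 and 3, against 14.2, 10.4 and 14.9 FPKM in wild-type replicates 1, 2 and 3. The lowest dcl1 library was still 1.62 times the highest wild-type library. The means were 27.4 ± 3.70 FPKM in dcl1 and 13.2 ± 2.44 FPKM in wild type (SD, n = 3 each). On the log2(FPKM + 1) scale the difference was 1.01 (SE 0.15, 95% interval 0.66 to 1.36, limma adjusted p = 0.0031).

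SPL4, which responds to the floral transition at the shoot apex, was 19.5, 19.2 and 23.3 FPKM in dcl1 replicates 1, 2 and 3, against 6.68, 5.23 and 7.84 FPKM in wild-type replicates 1, 2 and 3. The dcl1 library nearest to wild type was 2.44 times the highest wild-type library. Mean levels were 20.6 ± 2.30 FPKM in dcl1 and 6.58 ± 1.31 FPKM in wild type (SD, n = 3 each). The log2 difference was 1.52 (SE 0.14, 95% interval 1.20 to 1.85, limma adjusted p = 0.00049). Of the 17925 tested genes, 385 had a larger log2 difference in this direction than SPL4, 501 had a larger one than SPL5 and 741 had a larger one than SPL3.

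SPL5, a close relative of SPL4, had the lowest level and the narrowest spread. It was 8.96, 8.82 and 8.41 FPKM in dcl1 replicates 1, 2 and 3, against 2.63, 3.11 and 3.22 FPKM in wild-type replicates 1, 2 and 3. The lowest dcl1 library exceeded the highest wild-type library 2.62 times. Averaged over libraries, SPL5 stood at 8.73 ± 0.284 FPKM in dcl1 and 2.98 ± 0.315 FPKM in wild type (SD, n = 3 each). Its log2 difference was 1.29 (SE 0.09, limma adjusted p = 0.00015).

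**Figure D1:**
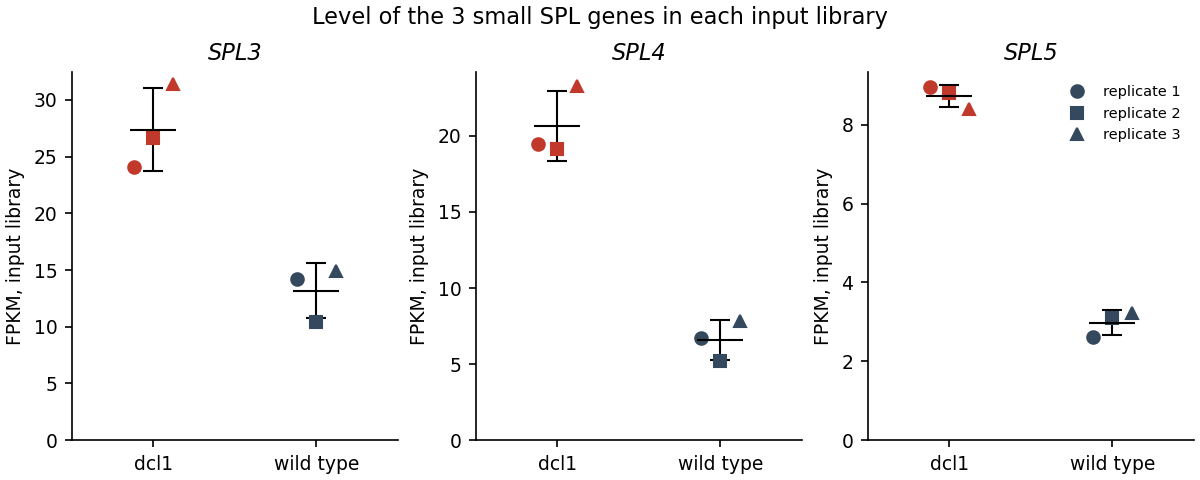
FPKM of SPL3, SPL4 and SPL5 (vertical axes, from 0) in each dcl1 and wild-type input library, with the mean as a horizontal mark and the SD as a bar (n = 3). All dcl1 libraries lie above all wild-type libraries for each gene, for example 8.41 to 8.96 against 2.63 to 3.22 FPKM for SPL5.

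The authors' deposited table, which compares the same input libraries, marked SPL3, SPL4 and SPL5 as significant and up. That mark is carried by 4.74% of all genes in the authors' deposited table. Its q-values were 4.8e-10 for SPL3, 1.8e-23 for SPL4 and 4.9e-13 for SPL5. The mark does not follow the q-value alone. SPL2 (1.95 times, q = 2.3e-12) and SPL9 (1.99 times, q = 1.6e-10) lack it. Among the larger miR156 targets it is carried by SPL10, SPL13A and SPL13B.

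The order of levels was the same in all 6 input libraries, with SPL3 above SPL4 and SPL4 above SPL5. The ratio of SPL3 to SPL4 was smaller in the mutant. SPL3 had 1.24, 1.39 and 1.35 times the FPKM of SPL4 in dcl1 replicates 1, 2 and 3, and 2.13, 1.99 and 1.90 times in wild-type replicates 1, 2 and 3. These ratios did not overlap between genotypes. With 3 libraries against 3, an exact two-sided permutation test cannot go below p = 0.10, which is the value it gave for this ratio (0.3 after adjustment over the 3 ratios among the genes). The ratio of SPL4 to SPL5 was 2.37 ± 0.343 in dcl1 and 2.22 ± 0.471 in wild type (exact permutation p = 0.8), and that of SPL3 to SPL5 was 3.15 ± 0.531 in dcl1 and 4.47 ± 1.05 in wild type (exact permutation p = 0.2, SD, n = 3 each).

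Summed over the 3 genes, the level was 52.5, 54.6 and 63.1 FPKM in dcl1 replicates 1, 2 and 3, against 23.5, 18.7 and 26.0 FPKM in wild-type replicates 1, 2 and 3. SPL3 made up 48.1 ± 2.02% of that sum in dcl1 and 57.8 ± 2.50% in wild type (SD, n = 3 each). SPL4 made up 36.3 ± 1.12% in dcl1 and 28.8 ± 1.20% in wild type. For both shares the exact permutation p was 0.1, the smallest this design allows (0.15 adjusted over the 3 shares). The SPL5 share, 15.5 ± 1.94% in dcl1 and 13.4 ± 2.86% in wild type, overlapped between genotypes (exact permutation p = 0.3).

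**Figure D2:**
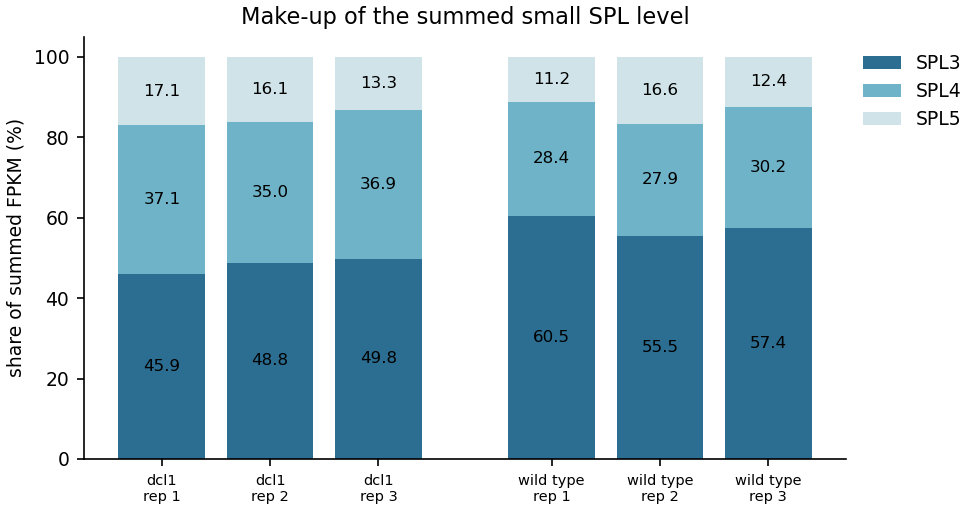
Share of the summed FPKM of SPL3, SPL4 and SPL5 (vertical axis, percent, from 0) held by each gene in every dcl1 and wild-type input library. The SPL3 segment is below 50% in the dcl1 libraries and above 55% in the wild-type libraries, and the SPL4 segment is larger in dcl1.

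The other SPL genes give the range in which these changes lie. Of the 8 larger miR156 targets, 7 rose and 0 fell, with a median log2 difference of 0.92, beside a median of 0.03 over all tested genes. Of the 6 SPL genes without a miR156 site, 2 rose and 0 fell, with a median of 0.16. Beside these counts, limma called 17.8% of all tested genes higher in dcl1 and 12.8% lower. Ranked by log2 difference among the 17 genes, SPL4 was the first, SPL5 the third and SPL3 the fifth. Between them stood SPL13A (1.29, adjusted p = 0.0012) and SPL13B (1.29, adjusted p = 0.0014), near-identical copies whose reads the counting could split, so their values are uncertain. SPL10 (0.95) and SPL9 (0.93), which promote adult leaf traits, came next. These ranks changed with the pseudocount, the constant added to FPKM before the log2. At 5 FPKM, SPL5 (0.783) lay below SPL13B (0.972), SPL13A (0.948) and SPL3 (0.836). At 0.1 FPKM, SPL10 (1.10) lay above SPL3 (1.06). SPL4 stayed above these genes in both fits (1.15 and 1.65).

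The 95% interval of SPL3 (0.66 to 1.36) covered the estimates of SPL13A, SPL13B, SPL10, SPL9 and SPL2. The difference of SPL15, a flowering regulator and a larger miR156 target, was 0.16 (adjusted p = 0.33). Of the 7 larger targets called higher, SPL11 had the smallest difference (0.36, limma adjusted p = 0.049). Across the leave-one-out fits, the larger targets called higher numbered 6 to 7. Among the genes without a site, SPL16 (0.38, adjusted p = 0.023) and SPL12 (0.28, adjusted p = 0.020) passed. For SPL16, only the fit without wild-type replicate 3 kept the call among the leave-one-out fits (limma adjusted p = 0.050 to 0.08 in the others). That of SPL12 was lost without dcl1 replicate 2 or 3 or wild-type replicate 1 or 2 (0.057 to 0.07) and after quantile normalization (0.057). By summed FPKM, the small genes held 34.6 ± 2.55% of the small and larger targets together in dcl1 and 29.6 ± 1.98% in wild type (SD, n = 3 each, exact permutation p = 0.1). Without a test that can go lower, this share is given as a description.

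**Figure D3:**
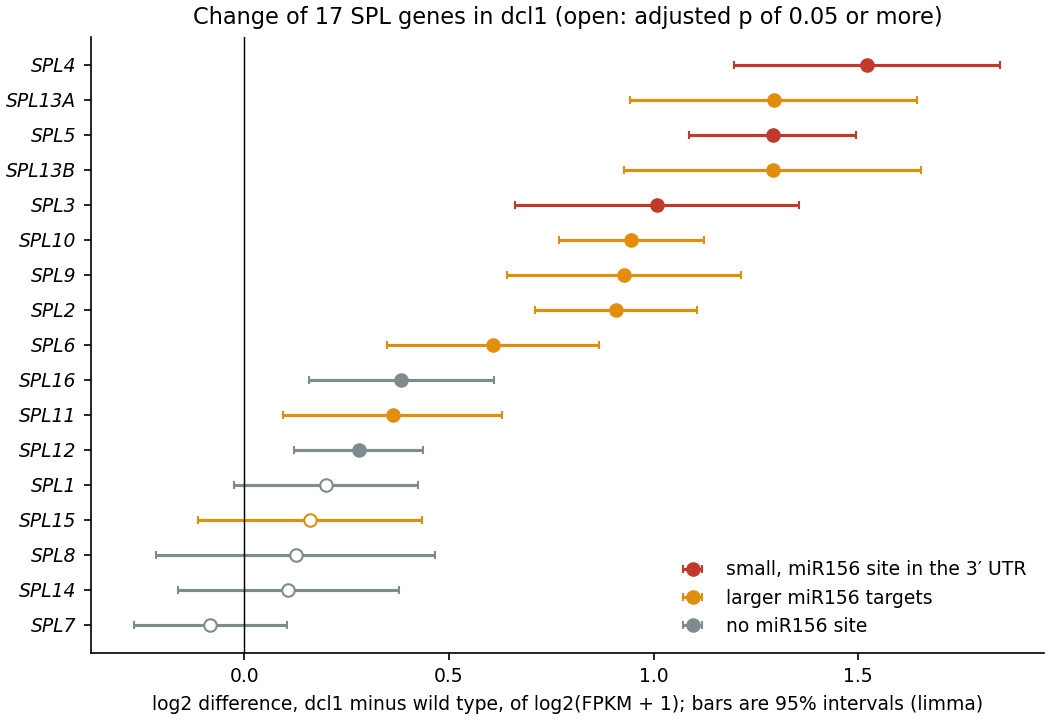
Log2 difference of dcl1 minus wild type on log2(FPKM + 1) for 17 SPL genes, one per line from the largest at the top, with 95% intervals from limma (n = 3 per genotype). Red marks SPL3, SPL4 and SPL5, at 1.52, 1.29 and 1.01 for SPL4, SPL5 and SPL3, orange the larger miR156 targets, grey the genes with no site, and open points an adjusted p of 0.05 or more.

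The loci of the microRNAs that target these genes were measured through their primary transcripts. Of 12 MIR156 and MIR157 loci, 8 were in the table, 5 were tested, and those 5 rose. The minimum was a mean over both genotypes. In wild type, 1 of the 8 averaged 1 FPKM or more, so a locus near 0 there could enter the test only by being high in dcl1, and the count of 5 is no support for a direction. MIR157C was 226, 175 and 199 FPKM in dcl1 replicates 1, 2 and 3, against 15.9, 19.1 and 14.2 FPKM in wild-type replicates 1, 2 and 3 (log2 3.53, adjusted p = 1.1e-05). It was thus the most abundant of these loci in every library. MIR156C was 21.3, 18.5 and 18.3 FPKM in dcl1 and 0.515, 0.195 and 0.447 FPKM in wild type, and since it passed the minimum only through its dcl1 level, no test is given for it.

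MIR156A averaged 6.11 ± 1.44 FPKM in dcl1 and 0.291 ± 0.348 FPKM in wild type, and MIR157A 3.42 ± 1.58 FPKM in dcl1 and 0.378 ± 0.0384 FPKM in wild type (SD, n = 3 each). MIR157A and MIR157B, both of 91 bases, were listed at the same 0.336 FPKM in wild-type replicate 1, and how reads were divided between such similar loci is uncertain. MIR156B, MIR156D and MIR157D were below the minimum, and each was listed at 0 in at least 2 of the 3 wild-type libraries. MIR156E to MIR156H were not analysed here. These loci, apart from MIR156C, span 80 to 172 bases in the authors' table, which makes their FPKM imprecise. Mature microRNAs were not measured in these libraries.

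**Figure D4:**
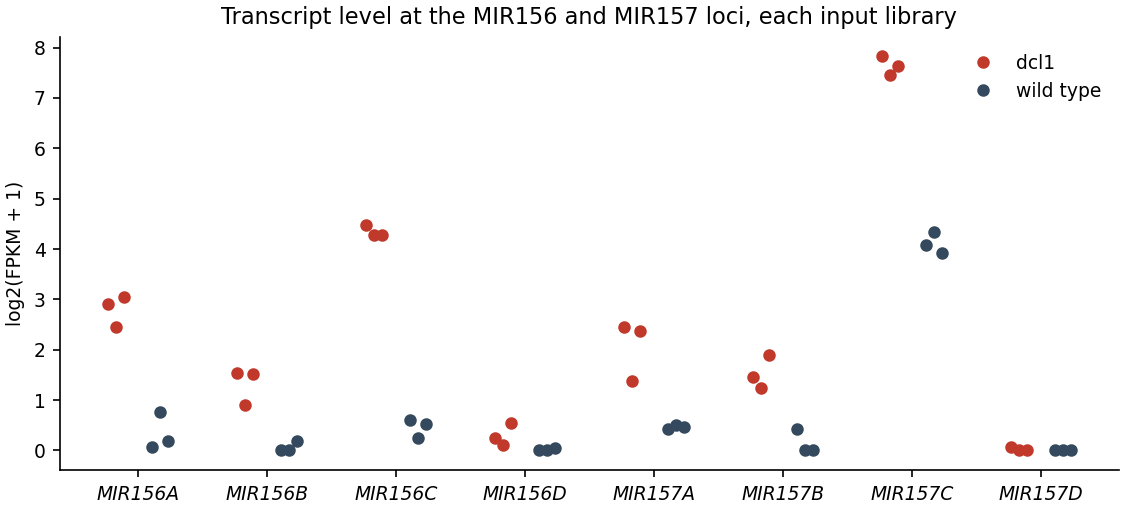
Level of 8 MIR156 and MIR157 loci as log2(FPKM + 1) in each dcl1 (red) and wild-type (dark) input library, 3 points per genotype. MIR157C is highest in both genotypes, at 175 to 226 FPKM in dcl1 and 14.2 to 19.1 FPKM in wild type, and MIR157D is at or near 0.

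Partners and targets of the small SPL proteins at the floral transition were taken as a list of 10 genes, of which 6 were tested. Of these 6, 5 rose and 1 fell (median log2 difference 0.66), beside 17.8% higher and 12.8% lower among all tested genes. BZIP27, also FDP, a paralog of the FT partner FD, was 5.42, 4.45 and 5.01 FPKM in dcl1, against 1.53, 1.57 and 1.76 FPKM in wild type (log2 1.19, adjusted p = 0.00031). FD itself was 4.52, 4.30 and 4.58 FPKM in dcl1 and 3.08, 2.16 and 3.52 FPKM in wild type (log2 0.50, limma adjusted p = 0.031). Without any 1 library other than wild-type replicate 3, the number of these genes called higher was 4 in place of 5, and FD was the gene lost. SOC1 (AGL20), a flowering integrator upstream of SPL4 and SPL5, was 39.6, 37.3 and 42.2 FPKM in dcl1 and 26.6, 22.4 and 29.5 FPKM in wild type (log2 0.59, adjusted p = 0.0064).

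Of the floral genes that the small SPL proteins activate, FUL (AGL8) was at 5.01 ± 0.730 FPKM in dcl1 and 2.63 ± 0.380 FPKM in wild type, and AP1 at 3.58 ± 1.01 FPKM in dcl1 and 1.57 ± 0.269 FPKM in wild type (SD, n = 3 each). Both passed (limma adjusted p = 0.0057 and 0.011). LFY, the third, was below the minimum and overlapped between genotypes, with 0.725, 0.645 and 0.918 FPKM in dcl1 and 1.33, 0.823 and 1.03 FPKM in wild type. FT, the leaf-made flowering signal, was 0.0891, 0.0496 and 0 FPKM in dcl1 and 0.388, 0.127 and 0.277 FPKM in wild type. The level of FT was thus low in all 6 libraries. Its mean was below the minimum, and its difference was not tested. AGL24, an activator of SOC1, fell (log2 -0.39, adjusted p = 0.041), and as the only gene of the list called lower its call was lost with no minimum, under the replicate block and in all leave-one-out fits but that without dcl1 replicate 2.

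Among 8 repressors of flowering, 6 were tested, 3 rose and 1 fell (median 0.26), beside 17.8% higher and 12.8% lower among all tested genes. FLC, which represses SOC1 and FT, was 13.4, 10.8 and 8.19 FPKM in dcl1, against 1.10, 1.73 and 1.14 FPKM in wild type (log2 2.33, adjusted p = 0.00024). SVP, its partner, was 81.9 ± 2.38 FPKM in dcl1 and 61.4 ± 3.62 FPKM in wild type (SD, n = 3 each, log2 0.41, adjusted p = 0.0043). MAF2 (AGL31), an FLC paralog, was 0.30 higher on the log2 scale, a call that held without dcl1 replicate 2 but with no other library left out (adjusted p up to 0.12). TFL1, an antagonist of FT, was 1.73, 1.86 and 3.02 FPKM in dcl1 and 4.65, 3.22 and 4.71 FPKM in wild type (log2 -0.71, adjusted p = 0.026). The TFL1 call was lost without dcl1 replicate 1 or 2 or wild-type replicate 1 or 3 (0.06 to 0.087).

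The miR172 module acts downstream of SPL genes in phase change. Of 5 MIR172 loci, 2 were tested and both were called higher, MIR172B at 98.9 ± 18.9 FPKM in dcl1, against 1.43 ± 0.177 FPKM in wild type, and MIR172A at 6.04 ± 0.816 FPKM in dcl1, against 0.133 ± 0.0496 FPKM in wild type (SD, n = 3 each). The same minimum applies to them, and MIR172B alone of the 5 averaged at least 1 FPKM in wild type. Of 6 AP2-like genes that miR172 targets, 1 rose and 2 fell, beside 17.8% higher and 12.8% lower among all tested genes. The number higher was 2 without dcl1 replicate 3 or wild-type replicate 3, and the number lower was 3 without wild-type replicate 1. TOE2 rose by 1.22 on the log2 scale, and SNZ (-2.78) and SMZ (-1.29) fell. In the microRNA machinery, HYL1, the partner of DCL1, rose by 0.48 and DCL1 fell, while the other 5 of 7 genes did not pass.

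SPL3 and SPL5 each share their place in the genome with a gene on the opposite strand, and whether the authors counted by strand is not given in the sources used here. AT2G33815 (chromosome 2, 14305008 to 14306053, minus strand) covers 97.6% of the span of SPL3. Its level was 1.10, 1.32 and 0.728 FPKM in dcl1, against 0.540, 0.551 and 1.01 FPKM in wild type, with overlapping genotypes and a mean below the minimum. AT3G15260 (chromosome 3, 5138686 to 5142644, plus strand) spans the whole of SPL5. It was 21.7, 18.1 and 16.9 FPKM in dcl1, against 14.6, 14.9 and 17.2 FPKM in wild type, a log2 difference of 0.26 (SE 0.11, limma adjusted p = 0.11). Without strand, reads of SPL5 and of AT3G15260 from the bases they share cannot be told apart.

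SPL4 has no overlapping gene in the table. The genes around the 3 loci, taken as 2 on each side and including the overlapping ones, numbered 12, of which 8 were tested. By limma 0 of the 8 passed, 3 had an unadjusted p-value under 0.05, and 0 of the 12 are marked as significant in the authors' deposited table.

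The m6A table holds 3117 differential peaks, the authors' comparison of dcl1 over wild type, and 14.0% of the genes in the expression table are overlapped by at least 1 of them. None names SPL3, SPL4 or SPL5 as its gene. By position, with an overlap of at least 1 base, 2 peaks lie on SPL3 and 0 on SPL4 and SPL5. The table lists differential peaks alone, with a largest p-value of 0.049, so 0 rows do not show that SPL4 or SPL5 lack m6A.

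The wider SPL3 peak runs from 14305863 to 14306072 on chromosome 2, 210 bases at the 3′ end of the gene, and ends on its last base. In the authors' deposited table its log2 change in dcl1 is 0.891 (p = 2e-09, FDR = 5e-08), and it is annotated to a 3′ UTR. The narrower peak, from 14305874 to 14306053, lies inside it and shares 180 bases with it, so the peaks are not independent. Its log2 change in the authors' deposited table is 0.876 (FDR = 7.8e-07), with the annotation of an exon of AT2G33815. Both are assigned to AT2G33815, and the 5′ end of that gene, where the narrower peak ends, lies 19 bases inside the 3′ end of SPL3. Of all 3117 differential peaks, 504 overlap genes on both strands.

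**Figure D5:**
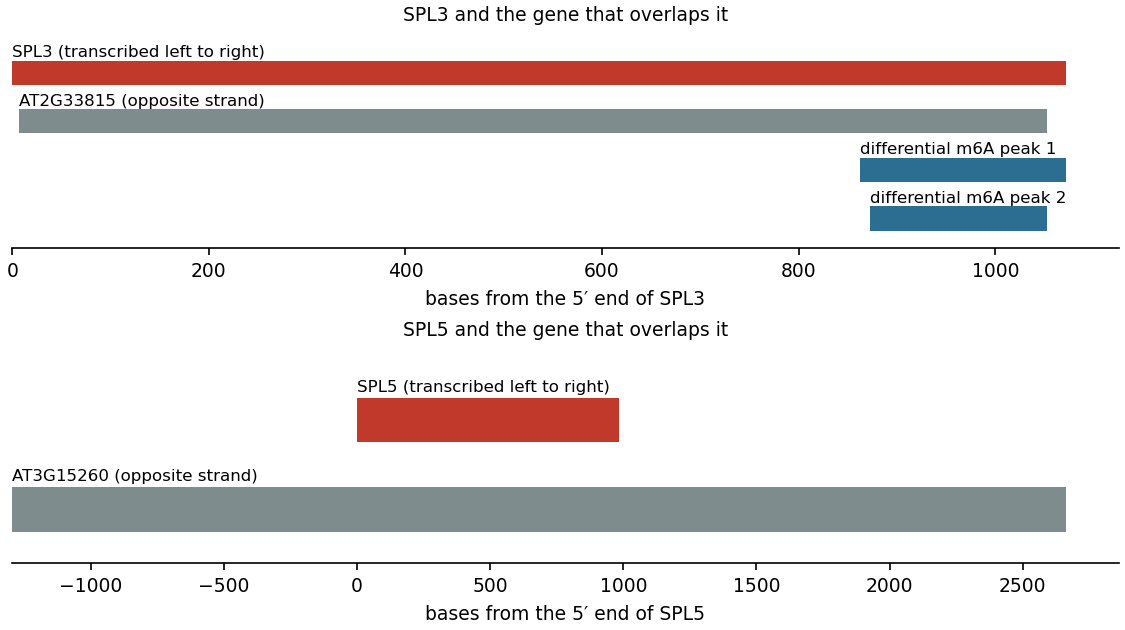
Maps of SPL3 (top) and SPL5 (bottom) drawn to scale, in bases from the 5′ end of each gene, with the opposite-strand gene that overlaps it and, for SPL3, the differential m6A peaks of 210 and 180 bases. Both peaks lie in the last part of SPL3 and AT3G15260 extends past SPL5 on both sides.

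Of the 3117 peaks, 65 had a larger log2 change in dcl1 than the wider SPL3 peak, and peaks that were higher in dcl1 had a median of 0.289. The log2 ratio of mean FPKM for SPL3 in the authors' deposited table is 1.05, beside 0.891 for the wider peak. The scaling of the peak change and its relation to input are not given in the sources used here. Whether the peak changed less or more than the transcript thus cannot be told. Of all 3117 peaks, 1879 were higher and 1238 lower in dcl1. Among 86 peaks that overlap a single gene whose FPKM rose at least 2-fold, 18 were higher in dcl1. The median log2 change of all 86 was -0.68. The SPL3 peaks are not among those 86, since they overlap a pair of genes.

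Peaks at the larger miR156 targets moved both ways in the authors' deposited table. SPL2 had a peak with a log2 change of 0.324, assigned there to its neighbour AT5G43260. SPL6 (-0.696, FDR = 0.044) and SPL10 (-0.224, FDR = 0.046) each had a 3′ UTR peak that was lower in dcl1, while their transcripts rose by 0.61 and 0.95 in limma. SPL14, which has no miR156 site, had a lower peak near its 3′ end (-0.387), and a further peak assigned to it lies outside its span.

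Within genotypes, SPL3 and SPL4 ranked the libraries alike in wild type, with replicate 3 highest and replicate 2 lowest, and both were highest in dcl1 replicate 3. SPL5 had its lowest dcl1 level in replicate 3 and its lowest wild-type level in replicate 1. Over the 6 input libraries, Pearson's r of log2(FPKM + 1) was 0.986 for SPL3 with SPL4, 0.967 for SPL4 with SPL5 and 0.918 for SPL3 with SPL5. The points share their libraries and fall into the 2 genotypes, so these values are descriptions, and 1092, 1449 and 1018 tested genes had r over 0.95 with SPL3, SPL4 and SPL5 in turn. The genes most like SPL3 were AT5G52760, a copper transport family gene (r = 0.998), AT3G53310, a B3-domain factor, and SOG1, a NAC regulator of the DNA damage response. Those most like SPL4 were the ribosomal protein gene AT3G13580 (r = 0.999), LBO1, an oxygenase of strigolactone synthesis, and ATG8B, an autophagy gene. Those most like SPL5 were MIR167a (r = 0.999), the gibberellin-regulated GASA6 and ALC, a helix-loop-helix factor of fruit opening. MIR167a passed the minimum only through its dcl1 level, so its r with SPL5 is no support for a shared pattern. Likeness in pattern did not mean likeness in size, since SOG1 averaged 6.51 ± 0.222 FPKM in dcl1 and 5.36 ± 0.202 FPKM in wild type, and MIR167a 20.4 ± 1.88 FPKM in dcl1 and 0.543 ± 0.325 FPKM in wild type (SD, n = 3 each).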

How the data were processed

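Per the file headers, the deposited gene values are FPKM for 6 input libraries. The authors' comparison holds a log2 fold of mean FPKM with its p-value and q-value, per the file headers. The authors' peak table holds a log2 change, a p-value and a score, the log10 of the FDR, per the file headers, and FDR values were computed from that score. The submitters' processing notes name HISAT2, fastp, StringTie, HOMER, ChIPseeker and edgeR beside TAIR10, without their roles. The peak table's 6 FPKM columns were not used. FPKM give no depth, so no counting intervals are given.

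Genes were compared with limma 3.58.1 in R 4.3.3 (moderated, with the trend option) on log2(FPKM + 1), which understates changes of low genes, two-sided, where a gene averaged 1 FPKM or more over the 6 libraries. Benjamini-Hochberg adjustment ran over all tested genes, with a threshold of 0.05. The fit was tried on simulated data with the same noise for every gene and few changed genes. That setting differs from these data, so no result here rests on it. Ratios and shares were compared by exact permutation. The members and the 13 gene lists were chosen with earlier results of these data known. Named are the members, DCL1, up to 4 called genes with non-overlapping libraries per list (or the largest change) and the 3 genes of highest Pearson r with each member, and FD, AGL24, LFY, FT, SPL15 and other unlisted genes were named after their values were seen. Symbols came from RefSeq (TAIR10.1), which matched 91 of 91 list genes. No sequences were used. Nothing states that replicates came from separate plants beyond the series design, so p-values measure the spread between libraries.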

Additional observations from a re-analysis of the deposited data

How the results depend on the processing

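SPL3, SPL4 and SPL5 kept their direction and their call in limma under all 14 alternatives each: pseudocounts of 0.1 and 5 FPKM, no minimum or a minimum of 5 FPKM, quantile and median-ratio scaling, no variance trend, a replicate block, and each library left out. Their log2 differences ranged from 0.836 to 1.10 for SPL3, 1.15 to 1.65 for SPL4 and 0.783 to 1.52 for SPL5, and the highest adjusted p was 0.012. Without 1 library they ranged from 0.858 to 1.10, 1.39 to 1.64 and 1.22 to 1.33. Replicate numbers are not stated to mark pairs, so they were not taken as pairs in the main fit. Same-numbered libraries of the genotypes deviated together only weakly (r = 0.0850, 0.0608 and 0.1504 for numbers 1, 2 and 3). For libraries with different numbers r was -0.1722 to 0.1163. These values do not settle whether the numbers mark pairs. With the replicate block the adjusted p was 0.0029 for SPL3, 0.00029 for SPL4 and 0.00071 for SPL5. Of 44 list genes called, 28 were called with a minimum of 5 FPKM, which tests fewer genes, and 34 to 42 without 1 library. In the main fit limma called 17.8% of all tested genes higher and 12.8% lower. The larger miR156 targets called higher numbered 6 to 7 and the MIR156 and MIR157 loci 4 to 5 without 1 library, and 2 loci were called with the minimum of 5 FPKM. Of 34 other genes called and named by rule, 25 held under every alternative that tested them, 9 lost the call under at least 1, and 0 reversed. The 34 include MIR156C, MIR156A, MIR157A and MIR172A, which passed the minimum only through dcl1. They also include DCL1 and SEP1, which passed it only through wild type. Calls of such genes, in this tally and in the counts above, are no support for a direction. FD and AGL24, named outside the rule and not in that tally, also lost theirs. Quantile scaling shifted the median of all tested genes to -0.0554. It called 2481 genes higher and 3716 lower, against 3189 and 2291 in the main fit. Without 1 library, 1835 to 3605 genes were called higher and 1247 to 2058 lower. The shares of 17.8% and 12.8% thus hold for the main fit only. The drop of the SPL3 share was -10.8 to -8.31 percentage points without 1 library, and the differences were 7.05 to 8.20 for SPL4 and 1.02 to 3.74 for SPL5. The count of peaks on the small SPL genes was 2 with FDR under 0.05 or with 50% of the peak inside the gene, and 0 by the authors' gene assignment.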
